A study of Mus musculus with 6 samples.

Results

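Solute carriers are the largest family of membrane transport proteins, and each gene symbol gives the family after the letters Slc (Slc2 for glucose carriers, Slc25 for mitochondrial carriers). Here the solute carrier genes of Tregs were compared between the skin-draining lymph nodes (LN) and the skin. Tregs are regulatory T cells, a CD4+ population that depends on Foxp3 and holds immune responses in check. A gene was included if GENCODE M21 lists it as protein-coding, its symbol is Slc followed by a digit, and it held at least 10 CPM (counts-per-million, with the library's summed counts as the base) in each of the 3 LN Treg libraries. The rule took 123 of the 371 protein-coding Slc genes, in a count table of 49315 genes. The members were thus chosen by their LN levels, so the levels within LN are given below as a description. The test of skin against LN uses the same LN values, and a call toward LN is not independent of the rule. Of the 123, 120 encode transporters or their subunits, and 3 carry the symbol alone: Slc9a3r1 (the scaffold NHERF1), Slc7a6os and Slc4a1ap.

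The table holds bulk RNA-seq of sorted Tregs, with 3 skin Treg and 3 LN Treg libraries, from neonatal mice 9 days old. All samples carry the Foxp3-GFP genotype, a reporter in which cells expressing Foxp3 are green, and no sample was treated. Both sexes were used, on an outbred C57BL/6J background, cells of 3 animals were pooled into each sample, and live CD45+ CD4+ Foxp3-EGFP+ cells were sorted after tissue digestion. The tissue label reads skin for all 6 samples, so the groups rest on the sample titles, and the libraries are named by the letter of their column (A to C). Where 3 values follow each other they are in that order.

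A T cell must take up from its surroundings whatever it does not make. Glucose enters through Slc2 proteins, glutamine and the large neutral amino acids through Slc1a5 and the Slc7a5/Slc3a2 pair, and iron, zinc and copper through Slc11, Slc39 and Slc31 proteins. Inside the cell, Slc25 proteins carry nucleotides, phosphate and carboxylic acids across the inner mitochondrial membrane, and Slc35 proteins bring activated sugars into the Golgi apparatus and endoplasmic reticulum for the glycosylation of proteins. Resting Tregs are known for a metabolism that leans on mitochondrial oxidation more than that of effector T cells.

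The skin libraries were much shallower than the LN libraries, with 3748669, 11741784 and 9033442 counts in skin A, B and C against 47243498 to 116158706 in LN. At 10 CPM a gene would have 37.5, 117 and 90.3 counts in skin A, B and C. A gene with 3 counts or fewer is called here at the floor, which is 0.800, 0.255 and 0.332 CPM in skin A, B and C. No unique molecular identifiers are described, so floors cover counting error only. Over the whole table, 2911, 5902 and 5187 genes were over the floor in skin A, B and C, against 17584 to 19318 in LN. A value at the floor in a skin library thus does not show that the cells lack the RNA. The summed level of 10 Treg and T cell markers was 8351 to 9366 CPM in LN and 6375 to 8424 CPM in skin, and each of the 10 was over the floor in some skin library, with Ctla4 called higher in skin. Foxp3, the gene behind the sort, was at 105.1, 139 and 37.8 CPM in LN and at 0, 28.1 and 0.111 CPM in skin, and like Cd4 it was at the floor in skin A and C. The sum of 16 myeloid markers was 694 to 985.0 CPM in LN and 33638 to 57773 CPM in skin, where 14 of the 16 were called higher and none was at the floor in all libraries. All 6 keratinocyte and all 5 melanocyte markers were at the floor in every skin library, and Krt10, Perp and Pmel among them were called higher in LN. The sum of 5 erythroid markers was 42.7 to 97.0 CPM in LN and 137, 209 and 608 CPM in skin A, B and C, with none of the 5 called. That of 6 fibroblast markers was 1.44 to 7.56 CPM in LN and 0, 90.6 and 0.775 CPM in skin, with Dcn, Lum and Pdgfra at the floor throughout the skin. Of 4 endothelial markers, summed at 139 to 173 CPM in LN and 29.0 to 71.2 CPM in skin, Flt1 was called higher in skin. Moving the other way, 4 B cell markers summed to 54.9 to 89.7 CPM in LN and to 0, 0 and 2.66 CPM in skin, with 3 of the 4 called higher in LN, as was Kit of the 5 mast cell and granulocyte markers, which summed to 11.6 to 26.7 CPM in LN and to 9.34, 0 and 0 CPM in skin. The part of these other markers in any skin value given below was not tested.

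**Figure D1:**
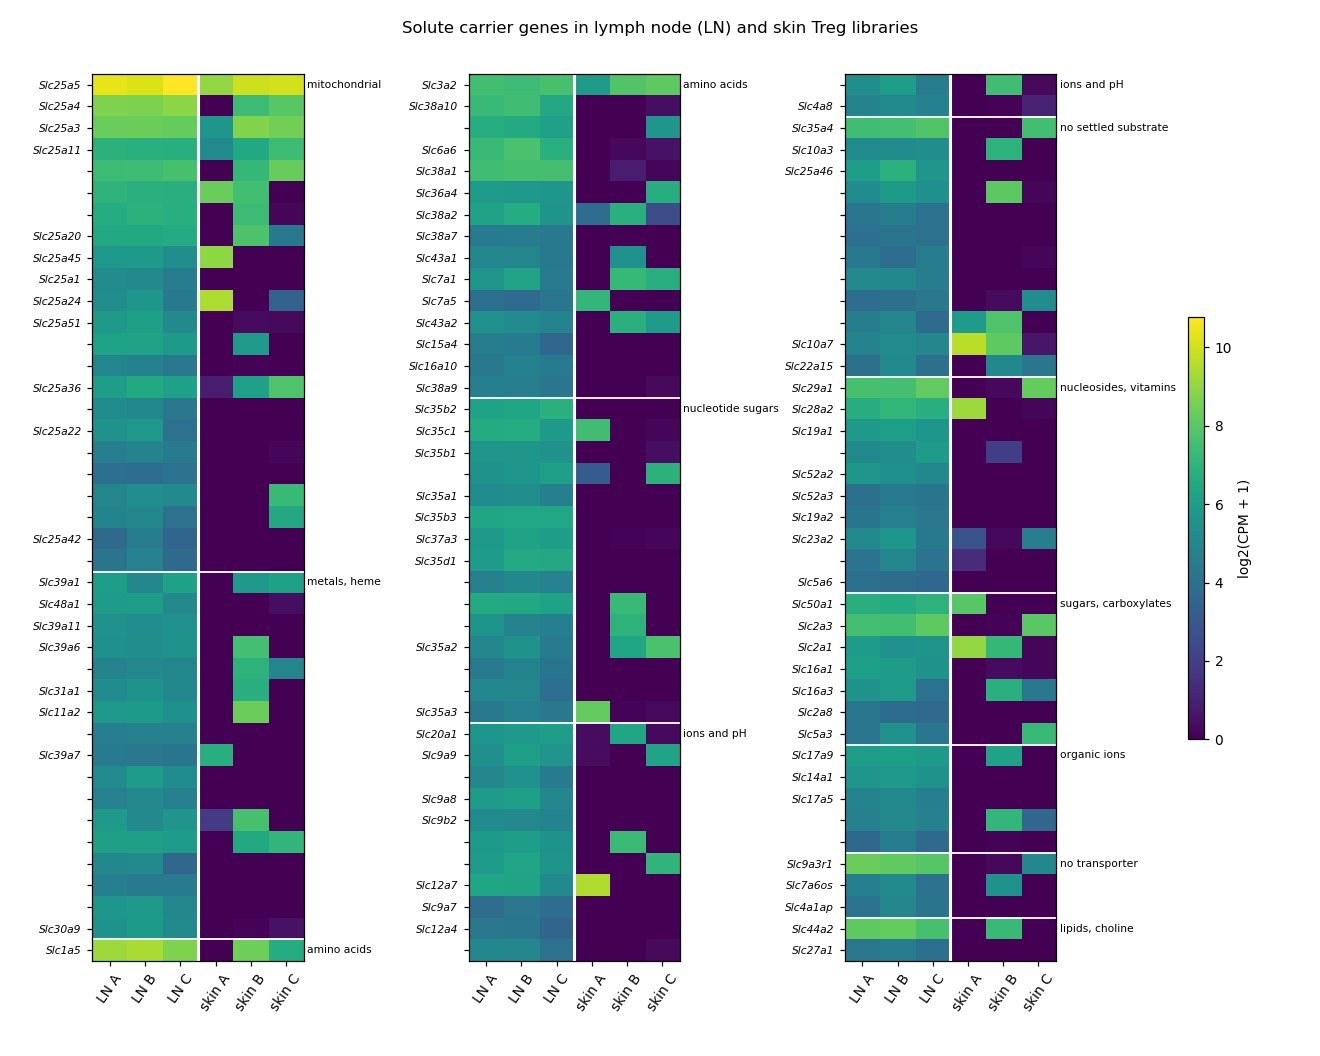
Level of each of the 123 solute carrier genes (rows, by substrate class and then by LN level per exon length) in the 3 LN and 3 skin Treg libraries (columns), as log2(CPM + 1), with the names of genes that the text describes. The LN columns are filled throughout, which the rule required, while each skin column is mostly at 0, with 98, 67 and 66 genes at 0 counts in skin A, B and C.

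The LN Tregs expressed members of 40 of the 49 Slc families. The mitochondrial carriers of the Slc25 family gave the most, 24 of 47 genes, followed by 17 of 27 Slc35 genes and 9 of 14 Slc39 zinc carriers. The share of a class that was expressed ran from 15 of 17 genes for nucleotide sugars and other secretory pathway substrates to 5 of 42 for organic ions and vesicular substrates and 2 of 17 for lipids and choline. In between stood metals and heme (17 of 33), nucleosides and vitamins (10 of 19), the mitochondrial carriers (23 of 46, without Slc25a46, which is an outer membrane protein with no settled substrate), amino acids and peptides (16 of 67), inorganic ions and pH (13 of 56), and sugars and carboxylates (7 of 39). A further 12 of 31 genes have no settled substrate.

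Most members were expressed at low levels. Of the 123, 104 had an LN mean under 100 CPM, and the range of means was 13.1 to 1429 CPM. The median was 41.6 CPM, against 58.5 CPM over the 7727 protein-coding genes that met the same LN minimum. The members together held 9311, 9933 and 9002 CPM in LN. Levels of different genes are compared below per exon length, in TPM (transcripts-per-million), as mean ± SD over the 3 LN libraries.

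The mitochondrial carriers summed to 4120 ± 361 TPM in LN, more than the other classes. Slc25a5, the ADP/ATP carrier ANT2 (chrX:36795651-36798807, plus strand, GRCm38), led with 2500.2 ± 432 TPM. It alone made up 15.2% of the members' CPM in LN. Slc25a4, the ADP/ATP carrier ANT1, stood at 533 ± 37.9 TPM, Slc25a3, the phosphate carrier, at 165 ± 13.7 TPM, and Slc25a11, which exchanges malate for 2-oxoglutarate, at 158 ± 9.33 TPM. The means of Slc25a3 and Slc25a11 lay within 1 SD of each other.

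Amino acid carriers came next, with 880 ± 182 TPM. Slc1a5, the glutamine carrier ASCT2, reached 390.2 ± 109 TPM, and Slc3a2, the heavy chain CD98 that holds Slc7a5 in the membrane, 149.6 ± 7.35 TPM. Slc38a10 followed at 63.2 ± 22.5 TPM. The light chain Slc7a5 itself, the carrier of leucine and other large amino acids, was low at 11.6 ± 1.68 TPM. Nucleotide sugar carriers summed to 546 ± 57.2 TPM, led by Slc35b2 (84.0 ± 17.9 TPM), which brings the sulfate donor PAPS into the Golgi, and the GDP-fucose carrier Slc35c1 (75.5 ± 23.8 TPM).

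The glucose carriers in LN Tregs were Slc2a3 (GLUT3), at 85.4 ± 18.5 TPM, Slc2a1 (GLUT1), at 40.9 ± 5.95 TPM, and the little expressed Slc2a8. Slc50a1, a sugar carrier of the SWEET family, stood above them at 219 ± 18.3 TPM. The lactate carriers Slc16a1 (MCT1) and Slc16a3 (MCT4) held 37.5 ± 7.77 TPM and 22.2 ± 13.2 TPM. Among nucleoside and vitamin carriers the equilibrative nucleoside transporter Slc29a1 led with 165 ± 34.5 TPM, ahead of the concentrative Slc28a2 with 82.2 ± 17.6 TPM and the folate carrier Slc19a1 with 36.2 ± 6.92 TPM.

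Among the metals, the zinc importer Slc39a1 (66.9 ± 23.6 TPM), the heme carrier Slc48a1 (55.7 ± 20.1 TPM) and Slc39a11 (35.8 ± 0.936 TPM) led. In the ion class the phosphate importer Slc20a1 stood at 28.8 ± 3.23 TPM, and the endosomal sodium/proton exchanger Slc9a9 at 26.7 ± 7.80 TPM. The smaller classes were led by the vesicular nucleotide carrier Slc17a9 (56.7 ± 7.26 TPM), ahead of the urea carrier Slc14a1 and the sialic acid carrier Slc17a5, and by the choline carrier Slc44a2 (87.0 ± 21.2 TPM), ahead of the fatty acid carrier Slc27a1. Of the genes without a settled substrate, Slc35a4 was highest at 175 ± 22.2 TPM, followed by Slc10a3 and Slc25a46. The scaffold Slc9a3r1, no transporter, reached 423 ± 62.4 TPM.

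At the edge of the rule the lowest LN library decided. Just inside were Slc25a42, a mitochondrial carrier of coenzyme A, at 12.3, 21.9 and 10.5 CPM in LN, Slc12a4 at 18.5, 17.7 and 10.6 CPM, and Slc15a4, a histidine and peptide carrier of lysosomes, at 22.7, 20.6 and 11.2 CPM. Just outside were Slc25a29 at 12.9, 9.95 and 11.0 CPM, the ornithine carrier Slc25a15 at 12.4, 12.6 and 9.63 CPM, and Slc31a2 at 12.9, 9.07 and 8.81 CPM. The LN values on either side overlapped.

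The members varied little among the LN libraries, with a median coefficient of variation of 20.5%, against 19.3% over the 7727 genes. The steadiest were Slc25a20, the carnitine/acylcarnitine carrier, at 94.0, 92.6 and 97.3 CPM in LN, then Slc35b3, Slc25a11, Slc25a3 and the glutamine carrier Slc38a1. The most variable was Slc7a1, a carrier of arginine and lysine, at 48.7, 76.8 and 20.4 CPM, with a coefficient of variation of 58.0%. It was followed by the myo-inositol carrier Slc5a3 (18.0, 44.7 and 18.0 CPM), Slc16a3 (45.7, 59.8 and 15.2 CPM), Slc22a15 (14.9, 35.2 and 14.9 CPM) and the glutamate carrier Slc25a22 (45.8, 52.6 and 15.3 CPM). In Slc5a3 and Slc22a15 LN B stood above the other libraries, and in Slc16a3 and Slc25a22 LN C stood below them.

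LN C was the lowest of the 3 LN libraries for 76 of the 123 members (61.8%), against 49.9% of the 7727 genes. The median log2 ratio of LN C to the mean of LN A and B was -0.32 over the members and -0.14 over the 7727. This ratio was lower in longer genes: Spearman's rho with exon length was -0.38 over the 123 members and -0.35 over the 7727 genes, a description across genes that share the same libraries. The 62 members of up to 4844 exon bases had a median ratio of -0.17, and the 61 longer ones -0.50. The cause was not tested.

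**Figure D2:**
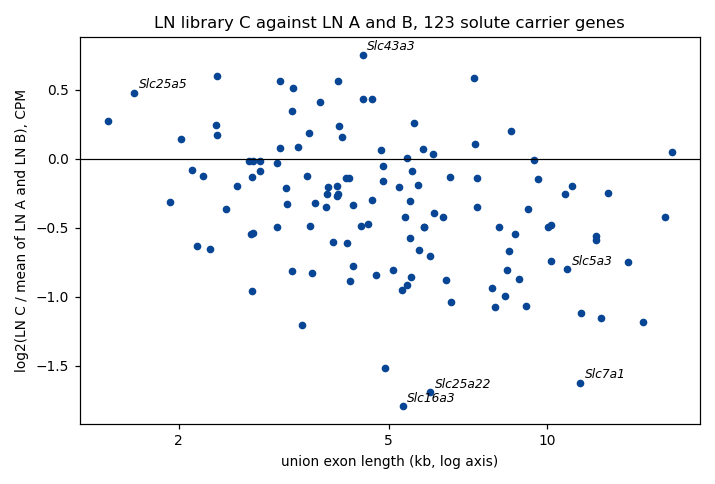
Log2 ratio of the CPM in LN C to the mean of LN A and B (vertical axis) against the union exon length in kb (log axis), 1 point for each of the 123 solute carrier genes. Points fall below 0 more often toward the right, with a median of -0.50 for the longer 61 genes against -0.17 for the shorter 62.

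In each skin library most members were at the floor, and 69 of the 123 were over it in at least 1 of them. Over the floor were 22, 42 and 38 of the 123 in the skin libraries (17.9%, 34.1% and 30.9%). The same shares over the 7727 genes were 26.3%, 53.6% and 48.3%. The median member stood at 0 CPM in each skin library, while the median of the 7727 genes was 0, 5.11 and 0.332 CPM. In bulk samples fewer cells that express a gene and less of its RNA per cell cannot be told apart.

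Counted over the libraries, 54 members (43.9%) stayed at the floor throughout the skin, 42 were over it in 1, 21 in 2 and 6 in all 3 (4.88%). Of the 7727 genes, 28.8% stayed at the floor, 30.2% were over it in 1, 25.1% in 2 and 15.9% in all. The members' shares in 1 and in 2 libraries were 34.1% and 17.1%. Of the 42 members seen in 1 library, 9 were in skin A, 18 in skin B, the deepest, and 15 in skin C. These were 7.32%, 14.6% and 12.2% of the members, against 3.53%, 15.2% and 11.5% of the 7727 genes. Skin B and C shared 14 members that skin A lacked, skin A and B 4, and skin A and C 3. The shares were 11.4%, 3.25% and 2.44% of the members, against 18.3%, 4.22% and 2.64% of the 7727 genes. Without skin A, 20 members were over the floor in both remaining libraries, and without skin C the count was 10. No count at all in any skin library was found for 42 members (34.1%), against 19.2% of the 7727 genes.

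**Figure D3:**
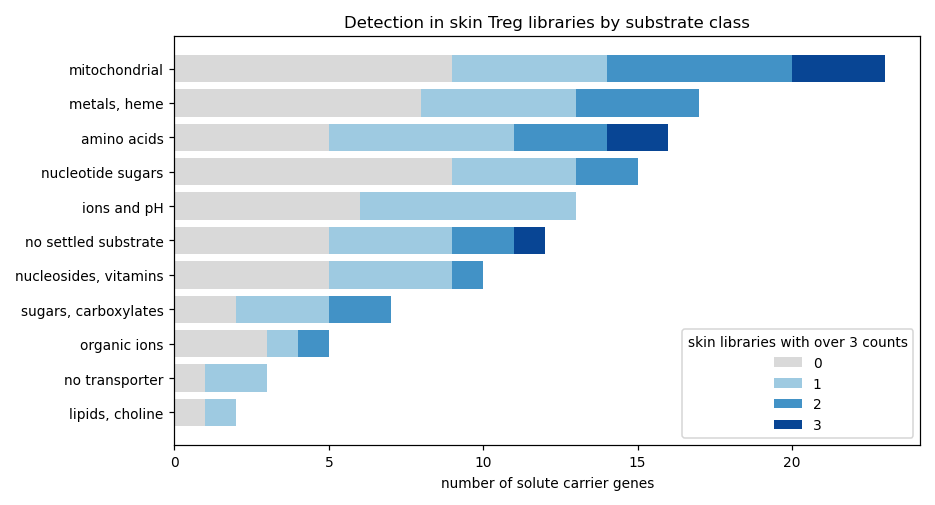
Number of solute carrier genes of each substrate class (bars) by the number of skin Treg libraries, of 3, in which they had over 3 counts (shades). Grey parts, at the floor in all skin libraries, run from 9 of 15 nucleotide sugar carriers to 2 of 7 sugar and carboxylate carriers.

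The share of members at the floor throughout the skin was smaller in the higher ranges of LN level. Of the 46 members between 10 and 30 CPM in LN, 32 (69.6%) stayed at the floor throughout the skin, of the 58 between 30 and 100 CPM 21 (36.2%), of the 15 between 100 and 300 CPM 1 (6.67%), and of the 4 above none. The 7727 genes gave 56.0%, 28.9%, 8.51% and 0.879% in the same ranges. In the 3 ranges up to 300 CPM, members and the 7727 genes were over the floor in skin A at 10.9% against 10.5%, 17.2% against 20.5% and 33.3% against 39.2%. In skin B the shares were 13.0% against 26.4%, 43.1% against 49.3% and 46.7% against 77.2%, and in skin C 15.2% against 23.8%, 32.8% against 42.6% and 53.3% against 70.9%. Above 300 CPM, where there were 4 members, 2 were over the floor in skin A and all 4 in skin B and in skin C, against 74.3%, 97.0% and 94.9% of the 7727 genes in that range. These differences were not tested.

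**Figure D4:**
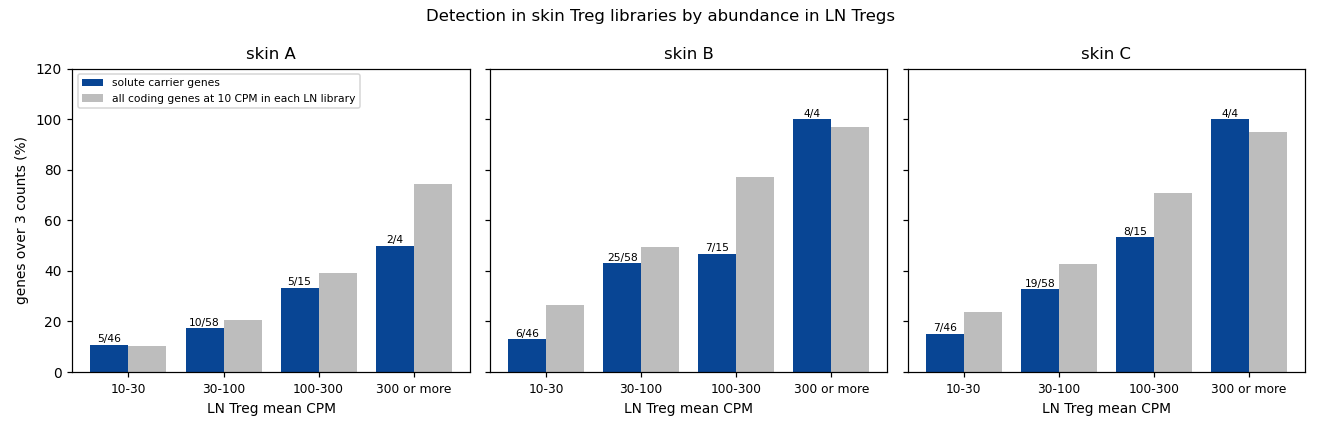
Share of genes over 3 counts (%) in each skin Treg library, in 4 ranges of the LN mean (CPM), for the 123 solute carrier genes (blue, with the number of genes above the bar) and all 7727 protein-coding genes at 10 CPM in each LN library (grey). Both shares rise with the LN level; in skin B the solute carrier bars stand at 13.0%, 43.1%, 46.7% and 100%.

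The 6 members over the floor in every skin library were Slc25a5, Slc25a3 and Slc25a11 of the mitochondria, Slc3a2 and Slc38a2 of the amino acid carriers, and Slc10a7. Slc25a5 was at 1325, 1201 and 1760.4 CPM in LN and at 530.0, 986 and 1053 CPM in skin, so that every skin library lay below every LN library. The edgeR quasi-likelihood test gave a log2 fold change of -0.67 (SE 0.53, adjusted p = 0.451), skin over LN, which did not pass the threshold of 0.05. Slc25a5 made up 14.3% of the members' CPM in skin, against 15.2% in LN.

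The phosphate carrier Slc25a3 (chr10:91116574-91124059, minus strand) was at 316, 329 and 303 CPM in LN and at 49.6, 422 and 357 CPM in skin. Skin A lay far below LN while skin B and C lay above it, and edgeR gave a log2 fold change of -0.04 (SE 0.96, adjusted p = 0.992). Slc25a11 (chr11:70644196-70647479, minus strand) was at 121, 115 and 112 CPM in LN and at 35.5, 91.6 and 168 CPM in skin, with skin C alone above the LN range, and the same fit gave a log2 fold change of -0.07 (SE 1.14, adjusted p = 0.988). For Slc3a2 (chr19:8706882-8723369, minus strand) the levels were 181, 168 and 199 CPM in LN and 61.6, 228 and 278 CPM in skin. Again skin A was below the LN range and skin B and C above it, with an edgeR log2 fold change of 0.19 (SE 0.93, adjusted p = 0.952). Leaving out skin A gave Slc25a3 a log2 fold change of 0.30 and Slc25a11 one of 0.19. Without skin B that of Slc25a11 was 0.021, and without skin C that of Slc3a2 was -0.49, none of them passing the test.

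The glutamine carrier Slc38a2 (chr15:96687392-96699730, minus strand) was at 72.8, 100 and 47.3 CPM in LN and at 13.6, 114 and 4.87 CPM in skin. Skin B was above the LN range, and skin A and C were below it, with an edgeR log2 fold change of -0.69 (SE 1.56, adjusted p = 0.876). Without skin B it was called lower in skin, at -3.22 (adjusted p = 0.0267). Slc10a7 (chr8:78509346-78734003, plus strand), a member of the bile acid carrier family with no settled substrate, was at 27.0, 35.7 and 31.1 CPM in LN and at 818, 278 and 0.553 CPM in skin. Skin A and B stood far above LN, and skin C held only 5 counts. The edgeR test gave a log2 fold change of 3.20 (SE 1.91, adjusted p = 0.286). Without skin C the gene was called higher in skin, at 3.68 (adjusted p = 0.0110).

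Where a member was over the floor in a skin library, it often stood above LN. Of the 369 values of 123 members in 3 skin libraries, 102 were over the floor, and of these 61 (59.8%) were above the highest LN value, 11 within the LN range and 30 below it. Of the values over the floor of the 7727 genes, 51.2% were above the highest LN value. By library, the share was 59.1% for the members and 61.9% for the 7727 genes in skin A, 71.4% and 48.9% in skin B, and 47.4% and 48.0% in skin C, so that the members' share was the higher one in skin B alone. This difference was not tested. The median ratio of a value over the floor to the LN mean was 1.53 for the members and 1.25 for the 7727 genes. Values in skin differed widely between libraries, and the median SE of the log2 fold change was 2.58 over the 65 members that were not called.

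**Figure D5:**
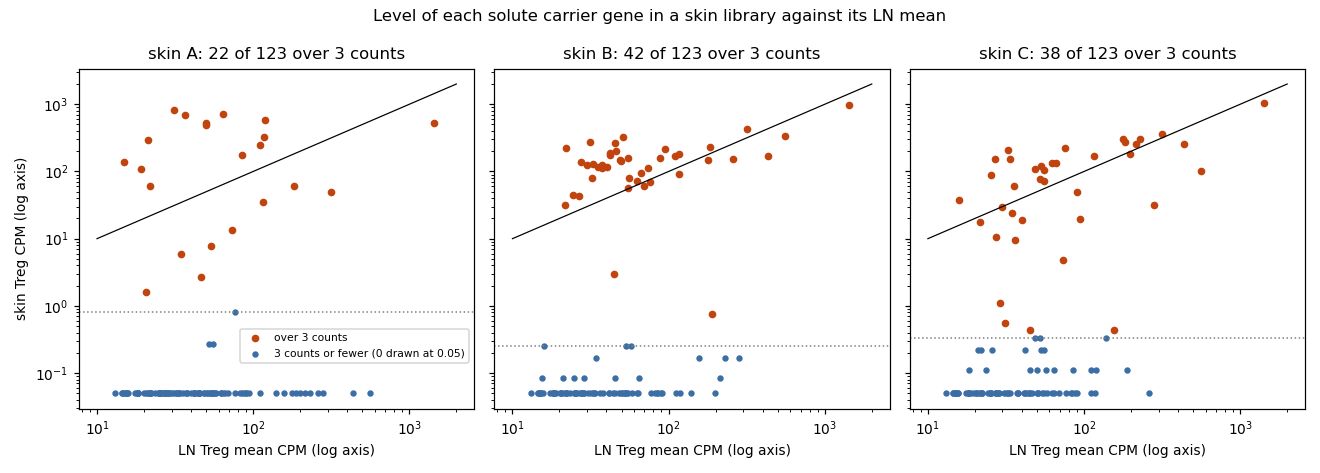
CPM of each solute carrier gene in a skin Treg library (vertical, log axis; counts of 0 drawn at 0.05) against its mean CPM in LN (horizontal, log axis), 1 panel for each skin library; the line marks equal levels and the dotted line the floor of 3 counts. The 22, 42 and 38 genes over the floor lie on both sides of the line, and the rest lie at the bottom of each panel.

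The 3 glucose carriers differed among the skin libraries. Such differences were common: of the 7727 genes, 30.2% were over the floor in 1 skin library alone and 25.1% in 2. Slc2a1 (chr4:119108711-119137983, plus strand) was at 58.9, 43.3 and 46.9 CPM in LN and at 531, 145 and 0.111 CPM in skin, high in skin A and B and at the floor in skin C. Slc2a3 was at 186, 183 and 276 CPM in LN and at 0, 0.0852 and 258 CPM in skin, at the floor in skin A and B and within the LN range in skin C. Slc2a8 had no counts in skin. Slc50a1 was found in skin A alone, at 252 CPM against 108, 99.7 and 125 CPM in LN. Slc16a1 stayed at the floor throughout the skin, while Slc16a3 was at 0, 115 and 18.9 CPM in skin against 45.7, 59.8 and 15.2 CPM in LN.

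The amino acid carriers were found in different skin libraries. Slc1a5 (chr7:16781340-16798274, plus strand) was at 584, 681 and 414 CPM in LN and at 0, 336 and 100.2 CPM in skin, so all skin libraries lay below LN, with an edgeR log2 fold change of -1.80 (SE 2.07, adjusted p = 0.663). Slc7a5 was at 139, 0 and 0 CPM in skin against 14.4, 12.6 and 17.9 CPM in LN, and Slc7a1 at 0, 147 and 109 CPM against 48.7, 76.8 and 20.4 CPM. Thus Slc7a5 was found in skin A alone, where Slc1a5 and Slc7a1 had no counts. The neutral amino acid carriers Slc43a1 and Slc43a2 and the lysosomal Slc36a4 were each found in skin B, skin C or both, never in skin A. The lysosomal arginine-sensing carrier Slc38a9 was at the floor in every skin library, as were Slc38a7, Slc16a10, Slc15a4 and Slc38a10.

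Of the other mitochondrial carriers, Slc25a4 was at 419, 400.0 and 484 CPM in LN and at 0, 169 and 253 CPM in skin, without a count in skin A and below LN in skin B and C. Slc25a36, a pyrimidine nucleotide carrier, was at 0.800, 70.2 and 222 CPM in skin against 65.0, 91.9 and 71.1 CPM in LN. Both were at the floor in skin A. The reverse held for Slc25a24, the ATP-Mg/phosphate carrier, which was at 692, 0 and 9.52 CPM in skin against 37.7, 52.0 and 19.5 CPM in LN, and for Slc25a45, found in skin A alone at 487 CPM. The 9 mitochondrial carriers at the floor in every skin library included the NAD carrier Slc25a51, the citrate carrier Slc25a1 and Slc25a22.

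Of the 17 metal carriers, 7 were over the floor in skin B, the deepest skin library, against 2 in skin A and 4 in skin C. Over all 123 members the shares were 17.9%, 34.1% and 30.9% in skin A, B and C. The 7727 genes gave 26.3%, 53.6% and 48.3%. The same order of libraries thus held in each set, and differences between the sets were not tested. The iron carrier Slc11a2 (DMT1) was found in skin B alone, at 323 CPM against 52.2, 58.5 and 41.3 CPM in LN, as were the copper importer Slc31a1 and the zinc carrier Slc39a6. Slc39a1 was at 0, 56.0 and 71.3 CPM in skin against 63.1, 31.2 and 71.3 CPM in LN, without a count in skin A and within the LN range in the others. Slc48a1 and Slc39a11 were at the floor in every skin library. Slc39a7, over the floor in skin A alone, shares 80.7% of its exon bases with the read-through gene Gm20427 on the same strand, and its value is uncertain.

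The nucleoside carriers Slc29a1 and Slc28a2 were each high in 1 skin library: Slc29a1 was at 200.1, 196 and 293 CPM in LN and at 0, 0.170 and 304 CPM in skin, and Slc28a2 was at 104, 142 and 112 CPM in LN and at 589, 0 and 0.111 CPM in skin. No skin library had both over the floor, and 30.2% of the 7727 genes were likewise over it in 1 skin library alone. The vitamin C carrier Slc23a2 was at 5.87, 0.170 and 23.8 CPM in skin against 33.6, 49.7 and 19.8 CPM in LN. Slc19a1, the riboflavin carriers Slc52a2 and Slc52a3, the thiamine carrier Slc19a2 and the biotin carrier Slc5a6 were all at the floor in every skin library.

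Of the 15 nucleotide sugar and secretory pathway carriers, 9 (60.0%) stayed at the floor throughout the skin, among them Slc35b2, Slc35b3, Slc35d1, Slc37a3, Slc35b1, which exchanges ATP into the endoplasmic reticulum, and the CMP-sialic acid carrier Slc35a1. Slc35b2 was at 76.0, 80.1 and 115 CPM in LN and at 0, 0 and 0 CPM in skin. Slc35b3, which carries PAPS as well, was at 80.6, 85.3 and 87.0 CPM in LN and at 0, 0 and 0 CPM in skin. Both PAPS carriers thus had no count in any skin library. Slc35c1 was found in skin A alone, at 175 CPM, the UDP-galactose carrier Slc35a2 in skin B and C, and Slc35a3 in skin A. The summed CPM of the class was 790 ± 56.6 in LN and 389 ± 75.6 in skin (SD, n = 3 each), and 2 or 3 genes gave most of each skin sum.

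Of the 13 ion carriers 6 were at the floor in every skin library, including the sodium/proton exchangers Slc9a8, Slc9b2 and Slc9a7. The other 7 were each over the floor in 1 skin library. Slc12a7, a potassium/chloride cotransporter, was at 78.8, 77.8 and 35.1 CPM in LN and at 720.0, 0 and 0 CPM in skin, high in skin A alone. Slc20a1, at 0.267, 80.2 and 0.221 CPM in skin, and Slc9a9, at 0.267, 0 and 76.9 CPM, were found in skin B and skin C respectively. Among the rest, Slc44a2 was found in skin B alone and Slc27a1 in none, Slc17a9 in skin B alone, and Slc14a1 and Slc17a5 in none. Slc35a4 was at 0, 0 and 180.4 CPM in skin, Slc10a3 was found in skin B alone and Slc25a46 in none. Slc9a3r1 was at 0, 0.170 and 31.3 CPM in skin against 317, 284 and 242 CPM in LN.

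The 10 members of highest LN level that stayed at the floor throughout the skin were Slc38a10, Slc35b2, Slc35b3, Slc35d1, Slc25a46, Slc37a3, Slc19a1, Slc16a1, Slc9a8 and Slc25a51. Slc38a10, the first of them, was at 151, 177 and 89.3 CPM in LN and at 0, 0 and 0.332 CPM in skin. Slc19a1, which carries folates, was at 56.4, 67.1 and 50.1 CPM in LN and at 0, 0 and 0 CPM in skin. Slc16a1 was at 66.8, 59.9 and 45.2 CPM in LN and at 0, 0.256 and 0.111 CPM in skin. No fold change is given for such genes, since reads of 1 molecule were not told apart from reads of several.

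All 123 members entered the edgeR test, which was fitted on 13572 genes. Higher in LN were 58 of the 123 members (47.2%), against a background of 45.3% of all genes tested and 31.8% of the 7727 genes at the same LN minimum. Higher in skin were 0, against 1.04% and 0.841%, with 0 members at an unadjusted p under 0.05 (background 1.48% and 1.18%) and 0 with DESeq2. The rule took genes with counts in LN, so that a gene at the floor in skin had to differ: 54 of the 58 stayed at the floor throughout the skin, and all 54 such members were called. By class the calls were 9 of 23 mitochondrial, 9 of 17 metal, 7 of 16 amino acid, 9 of 15 nucleotide sugar, 7 of 13 ion, 5 of 12 unsettled, 5 of 10 nucleoside and vitamin, 2 of 7 sugar and 3 of 5 organic ion carriers, 1 of the 2 lipid carriers and 1 of the 3 genes that are no transporters. Of the 65 not called, 33 had a positive and 32 a negative log2 fold change. With errors of the size given above, missing the threshold does not show that a member did not differ.

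The 4 called members that were over the floor in some skin library held few counts there, at most 10 in any library. Their fold changes are thus rough values. The rule required counts in LN, so these calls toward LN are a description and no independent support. Slc38a1 was at 179, 194 and 193 CPM in LN and at 0, 0.766 and 0.111 CPM in skin, with an edgeR log2 fold change of -9.18 (SE 2.13, adjusted p = 0.0141). The taurine carrier Slc6a6 was at 153, 204 and 112 CPM in LN and at 0, 0.170 and 0.443 CPM in skin, and the same fit gave a log2 fold change of -9.27 (SE 2.11, adjusted p = 0.0128). In both the highest skin library lay over 100-fold below the lowest LN library. The zinc carrier Slc30a9 was at 43.9, 57.1 and 34.3 CPM in LN and at 0, 0.0852 and 0.443 CPM in skin, with an edgeR log2 fold change of -7.67 (SE 1.67, adjusted p = 0.0115). The bicarbonate carrier Slc4a8 was at 27.4, 33.7 and 25.7 CPM in LN and at 0, 0.0852 and 1.11 CPM in skin, with an edgeR log2 fold change of -5.85 (SE 1.68, adjusted p = 0.0319). Slc38a1 and Slc4a8 were not called when any 1 LN library was left out (adjusted p of 0.0518 to 0.0621 and of 0.0606 to 0.0693), nor was Slc6a6 without LN A or LN B.

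Genes that act on carriers were taken from a list of 50, of which 49 were tested. Of these, 10 were called higher in LN and 3 higher in skin, beside a background over all genes tested of 45.3% and 1.04%, and 13 were over the floor in every skin library. The count higher in LN over these 49 genes was 21 without skin B, 16 without skin C and 0 with at least 10 counts in every library, under which 13 of them were tested. Over the 123 members it rose as well, from 58 to 77 without skin B and to 70 without skin C. The share of all genes called was taken from the main fit alone. Basigin (Bsg), the chaperone of Slc16a1 and Slc16a3, was at 287, 269 and 391 CPM in LN and at 196, 499 and 217 CPM in skin, and the groups overlapped (log2 fold change -0.04, SE 0.674, adjusted p = 0.988, edgeR). Embigin (Emb), of the same kind, was at 56.3, 199 and 194 CPM in skin against 152, 172 and 140.0 CPM in LN. Both chaperones were thus over the floor in every skin library, in which Slc16a1 was at the floor.

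The arrestin Txnip, which removes Slc2a1 from the cell surface, was at 131, 112 and 102 CPM in LN and at 0, 89.3 and 0.332 CPM in skin. Its relative Arrdc4 was called higher in LN, as were the ubiquitin ligases Nedd4 and Nedd4l. Wnk1, the kinase that controls Slc12 cotransporters, was at 213, 272 and 202 CPM in LN and at 1196, 589 and 1042 CPM in skin. Every skin library lay above every LN library, and edgeR gave a log2 fold change of 2.01 (SE 0.45, adjusted p = 0.0117). This call was lost without LN A and with no filter on low counts. The summed myeloid markers were higher in skin too, and their part in the Wnk1 values was not tested.

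The mitochondrial pyruvate carrier is made of Mpc1 and Mpc2, which stand outside the Slc names. Mpc1 was at 103, 79.5 and 149 CPM in LN and at 80.0, 47.4 and 235 CPM in skin, and Mpc2 was at 95.9, 75.1 and 98.0 CPM in LN and at 119.5, 40.1 and 0.221 CPM in skin, at the floor in skin C. Neither was called (edgeR log2 fold change 0.25, SE 1.15, adjusted p = 0.950 and log2 fold change -1.11, SE 1.80, adjusted p = 0.796). The lysosomal cystine exporter Ctns was over the floor in skin B alone.

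Of 23 genes of amino acid sensing and mTORC1, 5 were called higher in LN (Mtor, Nprl3, Rragb, Rragd and Castor1), 0 higher in skin (background 45.3% and 1.04%), 5 stayed at the floor throughout the skin and 4 were over it in all libraries. Fnip1 was at 36.1, 50.4 and 28.3 CPM in LN and at 10.1, 179 and 618 CPM in skin (log2 fold change 3.10, SE 1.59, adjusted p = 0.205, edgeR). DESeq2 called it higher in skin (log2 fold change 3.02, adjusted p = 0.0411), as did edgeR without skin A (3.42, adjusted p = 0.0201). Lamtor5, of the complex that anchors mTORC1 to the lysosome, was at 142, 116 and 191 CPM in LN and at 0, 59.6 and 147 CPM in skin. Lamtor2 was at 151, 113 and 280.5 CPM in LN and at 118, 136 and 55.9 CPM in skin, and Lamtor4 at 75.0, 66.6 and 69.9 CPM in LN and at 116, 110.4 and 56.5 CPM in skin. Neither Lamtor2 nor Lamtor4 was called, and they were over the floor in every skin library.

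Of 7 metal-handling genes tested, 2 were called higher in skin (background 1.04%) and 2 higher in LN (background 45.3%). Ferritin light chain (Ftl1) was at 973, 887 and 929 CPM in LN and at 3042, 1714 and 1319 CPM in skin, with every skin library above every LN library and an edgeR log2 fold change of 0.99 (SE 0.23, adjusted p = 0.0146). Metallothionein 1 (Mt1), a zinc-binding protein, was at 9.56, 8.13 and 10.9 CPM in LN and at 323, 71.7 and 181 CPM in skin, and the same fit gave a log2 fold change of 4.19 (SE 1.23, adjusted p = 0.0332). The transferrin receptor Tfrc was at 73.1, 101 and 57.2 CPM in LN and at 0, 0 and 0.111 CPM in skin, and it and the iron-regulatory protein Ireb2 were called higher in LN. Ferritin heavy chain (Fth1) was at 549, 573 and 346 CPM in LN and at 1335, 935 and 590.5 CPM in skin, which did not pass (log2 fold change 0.86, SE 0.355, adjusted p = 0.107, edgeR). With DESeq2 Fth1 was called higher in skin (log2 fold change 0.97, adjusted p = 0.0208). The summed myeloid markers were higher in skin, like Ftl1 and Mt1, with the sums given above, and their part in these values was not tested. The calls in skin depended on single libraries and on the filter. Without LN A, and with no filter on low counts, none of Wnk1, Ftl1 and Mt1 passed, and without LN B or without LN C Wnk1 alone did. Ftl1 was also not called without skin B, nor with at least 10 counts in every library.

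Transcription factors of nutrient transport gave no call among 6 in edgeR, while DESeq2 called Hif1a (adjusted p = 0.0172) and Atf4 (adjusted p = 0.00141) higher in skin, and edgeR without skin C called Hif1a (adjusted p = 0.0481). Hif1a, which drives Slc2a1, was at 398, 579 and 198 CPM in LN and at 2541, 1283 and 438 CPM in skin (log2 fold change 1.67, SE 0.596, adjusted p = 0.0698, edgeR). Myc, which drives amino acid carriers, was at 269, 267 and 225 CPM in LN and at 0, 69.5 and 183 CPM in skin, and Atf4, of the amino acid response, at 38.4, 40.0 and 28.6 CPM in LN and at 367, 143 and 74.3 CPM in skin. Skin C overlapped LN for Hif1a, all skin libraries lay above LN for Atf4, and all lay below it for Myc, with adjusted p of 0.167 and 0.787 for the last pair in edgeR.

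RefSeq windows from 250 bases before to 50 after the gene start (GRCm38.p6) were found for 96 of the 123 members, 129 windows in all. GGGCGG, the GC box, on either strand was in 75.2% of them, against 64.9% of 7966 windows of the 7727 genes and 35.7% of all 32851 windows. The Ets motif CCGGAAG was in 24.0%, 21.9% and 8.86%, and CCAAT in 35.7%, 37.9% and 37.4%. The median number of CG dinucleotides was 19, 22 and 7. A match to such letters is a description and does not show that a factor binds there.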

How the data were processed

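The authors deposited raw counts for each Ensembl gene, made from paired-end RNA-seq reads of sorted Tregs. Per the study's methods and the submitters' processing notes, reads were trimmed with Trimmomatic 0.36, mapped to GRCm38 with STAR 2.5.2b and counted over exons with featureCounts (Subread 1.5.2), keeping unique gene counts. Which annotation release and strand setting were used, and how duplicates were handled, is not given in the sources used here. Without strand or multi-mapping information, close copies such as Slc25a4 and Slc25a5 and overlapping genes are uncertain: 9 members share over 10% of their exon bases with another gene, and 87 share none. The replicates are pools of animals, whose p-values measure only the spread between these samples.

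From these counts, CPM on the library total and TPM with the union exon length of GENCODE M21 were computed. M21 named 48970 of the 49315 genes. Skin and LN were compared with edgeR 4.0.16 in R 4.3.3 (TMM, filterByExpr, robust glmQLFit and glmQLFTest, tissue as the only term, Benjamini-Hochberg adjusted p over 13572 genes, threshold 0.05); the methods state no test for this table. Standard errors come from the F statistic. Log2 fold changes are skin over LN. The script was tested on simulated data. Alternatives were DESeq2 1.42.0, other normalizations, filters, floors and LN minimums, a block on the column letter, and leaving out each library. The members and lists were chosen with earlier results of these data known. Named are the 3 members of highest LN TPM in each class, the 10 of highest lowest-library skin CPM, the 10 of highest LN CPM at the floor in all skin libraries, the 5 of largest and of smallest LN variation, those at the edge of the rule, those that are no transporters, and genes of the list of carrier regulators. A few members that these rules would name are not reported here. Others were named after their values were seen. Sequences of the promoter windows were not printed.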

Additional observations from a re-analysis of the deposited data

How the results depend on the processing

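The 4 counts over the members were each recomputed under the alternatives. The share of all genes called was taken from the main fit alone, so the counts below have no background beside them. The 58 members called higher in LN became 0 when a gene needed at least 10 counts in every library, under which 5 members were tested, and 31 with a minimum of 20 CPM in each LN library, which leaves 82 members. Leaving out 1 library gave 50 to 77. All 58 were also called with DESeq2 size factors, TMMwsp, DESeq2 (60 calls), non-robust dispersions and without each skin library, and 57 of them with no filter. The 0 members higher in skin became 1 (Slc10a7) without skin C, and stayed 0 without each other library. The 54 members at the floor in all skin libraries became 27 at 20 CPM, and 63 to 72 without 1 skin library. The 6 over the floor in all became 9 to 20 without 1 skin library. The direction of the uncalled differences turned for Slc25a3 (0.30 without skin A), Slc25a11 (0.19 without skin A, 0.021 without skin B) and Slc3a2 (-0.098 with at least 10 counts in every library, -0.49 without skin C). Over all fits without 1 library these ran from -0.53 to 0.30, from -1.06 to 0.19 and from -0.49 to 0.48. Slc4a8 was not called with no filter (adjusted p = 0.0537, edgeR). The regulators called higher in skin numbered 7 with DESeq2 and 0 with no filter. Leaving out the 3 genes that are no transporters, an alternative chosen after seeing the data, gave 57 members higher in LN and 53 at the floor. The labels number the samples and the columns carry letters, so the letter was set as a replicate block, chosen after seeing the data. Deviations of same-lettered libraries from their group means correlated at 0.020, -0.021 and 0.075 over the genes tested, and those of other letters at -0.077 to 0.063. Values this near 0, in skin libraries that differ this widely, cannot show whether same-lettered libraries share animals. With this block 48 members were called higher in LN, all among the 58, and 0 higher in skin. Slc38a1, Slc6a6, Slc30a9, Slc4a8, Wnk1 and Mt1 were not called, Hif1a was called higher in skin (adjusted p = 0.0283, edgeR), and Slc3a2 turned to -0.19. The common dispersion was 2.04. Skin depth sets the floors, all under 1 CPM, but genes far above them in 1 skin library were at the floor in another. Slc2a1, for example, was at 531 CPM in skin A and at 0.111 CPM in skin C.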

Other observations

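Among the 248 Slc genes outside the rule, 96 had no count in any library and 49 stood at 1 CPM or more in each LN library. Over the floor in some skin library were 14, and 2 of them in more than 1, named here after their values were seen. Slc31a2, a copper transporter relative of Slc31a1, was at 12.9, 9.07 and 8.81 CPM in LN and at 0, 124 and 138 CPM in skin. Skin B and C stood above LN and skin A had no count, with an edgeR log2 fold change of 3.30 (SE 2.43, adjusted p = 0.412). Slc25a37, mitoferrin 1, which carries iron into mitochondria, was at 7.85, 8.93 and 6.22 CPM in LN and at 0, 0.596 and 23.5 CPM in skin, with an edgeR log2 fold change of 0.40 (SE 1.88, adjusted p = 0.951). Of the erythroid markers, Alas2, the first enzyme of erythroid heme synthesis, was at 1.93, 2.97 and 1.82 CPM in LN and at 0, 0 and 159 CPM in skin, highest like Slc25a37 in skin C, and the part of such RNA was not tested. None of the 248 had a count in all 3 skin libraries.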
